A study of Homo sapiens with 18 samples.

Results

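Protocadherins are the largest family of cadherin-type adhesion proteins, and their genes were taken from the 5 deposited tables of a pancreatic cancer study by their symbol alone, as every gene ID that begins with PCDH. This gave 32 genes of 16616 in any of the tables. Of these, 26 belong to the gene clusters of chromosome 5 (4 PCDHA, 8 PCDHB and 14 PCDHG genes) and 6 lie elsewhere (PCDH1, PCDH7, PCDH9, PCDH15, PCDH18 and PCDH20). The study asked how CM03, a small molecule that binds DNA quadruplexes, changes transcription in the human pancreatic cancer cell line MIA PaCa-2, and in GemMIA-R3, a line derived from it by growth in rising concentrations of gemcitabine, which was withdrawn before the experiments. The 18 RNA-seq libraries form 6 groups of 3, namely GemMIA-R3 cells given 400 nM CM03 for 6 h or for 24 h, vehicle-treated GemMIA-R3 cells of both times, and parental cells of both times that received no CM03. Parental cells with CM03 were sequenced in earlier work and enter here only through their comparison tables, which means that the effect of the line cannot be told apart from that of the study where the CM03 responses are set side by side. No source says whether replicate libraries were grown as separate cultures, so the p-values measure only how far these samples spread, and that spread may be technical. Nor is it stated whether GemMIA-R3 is 1 clone.

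The values are log2 fold changes and false discovery rates (FDR, p-values adjusted over the genes of a table) in the authors' deposited tables. Values per library and counts were not used here, so the depth is unknown and no level of a gene in any 1 sample can be given. At an FDR under 0.1, a gene was called Down where its log2 fold change was below -0.5 and Up where it was above 0.5. The standard error (SE) beside a log2 fold change was worked back from the FDR, by undoing its adjustment for the number of genes. Over all genes its median ran from 0.0870 in parental cells with CM03 at 6 h to 0.177 in GemMIA-R3 cells with CM03 at 24 h. Of markers of the labelled cell type, all 6 epithelial ones (KRT7, KRT8, KRT18, KRT19, EPCAM and CDH1) were listed in the parental CM03 tables. In the tables that hold GemMIA-R3 cells 4 of 6 were listed, without EPCAM and CDH1. The comparison of the untreated lines is among the latter and also holds parental cells. Of 10 neuronal markers, 5 or 6 were listed in each table. Genes with a log2 fold change of exactly 0 are listed as well, so a listing does not show expression and does not decide the cell type.

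Clustered protocadherins are best known from neurons, where each cell uses a few of the clustered promoters and the proteins recognise identical copies on neighbouring membranes. Each PCDHA and PCDHG gene has its own first exon, for the extracellular cadherin repeats and the membrane span, which is spliced to constant exons shared by its whole cluster, whereas each PCDHB gene is a transcription unit of its own. The zinc finger protein CTCF and cohesin join the chosen promoter to a distant enhancer, and DNA and histone methylation keep the other promoters silent. Outside the clusters, PCDH7, PCDH9, PCDH18 and PCDH20 are among the delta protocadherins. PCDH1 is an adhesion protein of airway epithelium and an entry receptor of New World hantaviruses. PCDH15 forms the tip links of inner ear hair cells together with cadherin-23.

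The clusters span 727 kb of chromosome 5 (chr5:140786140-141512975, hg38), with the PCDHA genes first, then PCDHB, then PCDHG, and PCDH1 (chr5:141853090-141878410) lies on the other strand beyond them. In GENCODE release 44, between 21.4% and 53.3% of the exon bases of a PCDHA member, and between 27.5% and 45.6% of those of a PCDHG member, were also annotated to another protocadherin gene. For the 8 PCDHB members and the 6 members outside the clusters this share was 0. A read from a constant exon cannot be given to 1 gene of its cluster. The paper names the counting program FeatureCounts, but not its settings for such reads. The values of single PCDHA and PCDHG genes therefore rest on the remaining bases or on a split of shared reads.

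Promoter sequences from RefSeq (GRCh38.p14, 250 bases before to 50 bases after each annotated start) were found for 29 of the 32 genes, in 33 entries, and not for PCDH20, PCDHGC5 and PCDHB6. The tetramer CGCT, the core of the conserved element of clustered protocadherin promoters, was present on the gene's strand in all 27 entries of the 24 clustered genes and in 54.3% of all 35116 entries. On either strand it was in 70.0% of all entries. It lay 120 to 30 bases before the start in 81.5% of the clustered entries and in 25.9% of all entries, a window drawn after the positions were seen. A tetramer this common does not by itself show that an entry holds the conserved element. The longer motif GGTGGCGCT was found on the gene's strand in all 7 PCDHB entries and in no other member, and on either strand in 176 entries of all genes (0.501%), of which 13 belonged to genes named PCDHB. Shown here are upstream stretches of the clustered genes that the results below turn on, with 1 tetramer in capitals and its 30 preceding bases. Where an entry held several, 1 was marked by its position alone. In PCDHGC3 another, at position -70, is left in lower case. The stretches were not aligned, so a marked tetramer need not be the core of the conserved element. They show the shared ggtgg of the PCDHB genes beside the PCDHA and PCDHG genes.
PCDHB9 (chr5:141187060-141187123, plus strand): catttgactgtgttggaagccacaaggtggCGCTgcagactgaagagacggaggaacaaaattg
PCDHB13 (chr5:141213851-141213914, plus strand): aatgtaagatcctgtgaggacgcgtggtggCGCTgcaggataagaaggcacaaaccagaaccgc
PCDHB14 (chr5:141223249-141223312, plus strand): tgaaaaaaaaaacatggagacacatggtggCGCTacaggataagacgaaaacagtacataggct
PCDHA4 (chr5:140806965-140807028, plus strand): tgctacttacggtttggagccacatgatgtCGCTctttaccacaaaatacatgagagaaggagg
PCDHAC2 (chr5:140966405-140966468, plus strand): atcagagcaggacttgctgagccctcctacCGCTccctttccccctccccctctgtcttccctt
PCDHGB1 (chr5:141350011-141350074, plus strand): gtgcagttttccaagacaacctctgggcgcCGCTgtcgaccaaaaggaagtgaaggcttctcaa
PCDHGB2 (chr5:141359907-141359970, plus strand): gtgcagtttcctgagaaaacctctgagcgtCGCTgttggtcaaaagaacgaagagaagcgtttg
PCDHGB7 (chr5:141417593-141417656, plus strand): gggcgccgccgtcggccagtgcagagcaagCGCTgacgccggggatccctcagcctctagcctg
PCDHGC3 (chr5:141475885-141475948, plus strand): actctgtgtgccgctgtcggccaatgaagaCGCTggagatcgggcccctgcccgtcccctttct
In PCDHB13, PCDHB9 and PCDHB14 the run before the tetramer was the same for 5 bases, and the tetramer began 38, 71 and 64 bases before the start. In PCDHB8 the tetramer of the same motif began at position 3 after the start. A match describes these letters and is no evidence of a bound factor.

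A canonical quadruplex motif (4 runs of at least 3 G with loops of 1 to 7 bases, on either strand) was absent from all 27 clustered entries, while 25.0% of all entries held it. GC content differed as well, with a median of 43.0% in the clustered entries and 58.7% in all entries. Among the other protocadherins the motif was found in the promoters of PCDH1, PCDH7 and PCDH18 and not in those of PCDH9 and PCDH15. These stretches are shown because CM03 binds such structures, with the motif in capitals and written on the gene's strand, where runs of C mark a motif of the opposite strand.
PCDH1 (chr5:141869691-141869771, minus strand): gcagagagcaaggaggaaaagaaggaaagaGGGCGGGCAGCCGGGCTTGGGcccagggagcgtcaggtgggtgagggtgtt
PCDH7 (chr4:30720277-30720356, plus strand): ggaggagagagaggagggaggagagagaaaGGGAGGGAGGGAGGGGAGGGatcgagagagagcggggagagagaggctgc
PCDH18 (chr4:137532659-137532744, minus strand): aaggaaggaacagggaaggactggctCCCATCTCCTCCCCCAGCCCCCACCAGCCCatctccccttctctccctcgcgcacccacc
The PCDH1 entry begins at a start inside its annotated span. PCDH18 held another such motif 190 bases before its start, next to the one shown.

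**Figure D1:**
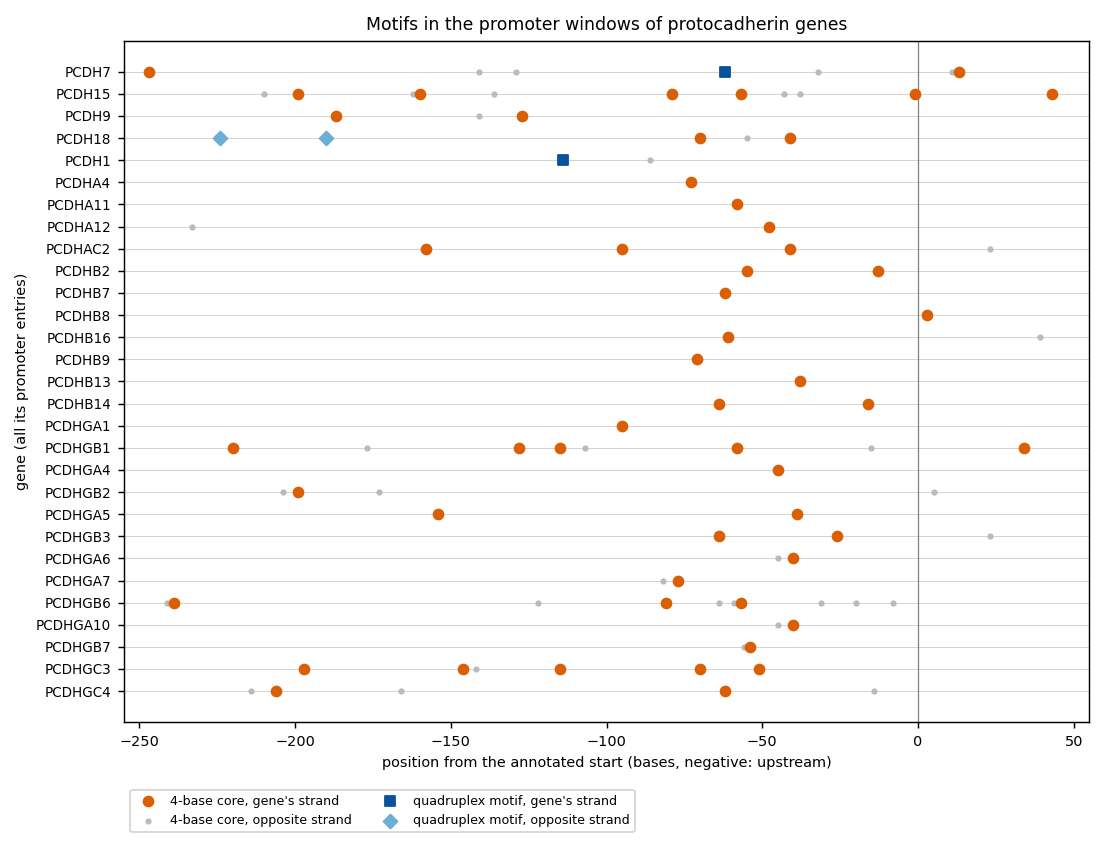
Positions of the 4-base core (circles, orange on the gene's strand, grey on the opposite strand) and of quadruplex motifs (blue) in bases from the annotated start, for each protocadherin with a promoter entry, all entries of a gene on 1 line. Quadruplex motifs appear only in PCDH7, PCDH18 and PCDH1, and the core of most clustered genes lies between 120 and 30 bases before the start.

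The first comparison set untreated GemMIA-R3 cells against untreated parental cells at 24 h. Of 20 protocadherins in this table, 7 were Down and 1 was Up, while 15.2% of all 14047 genes were Down and 11.7% were Up. PCDH1 and PCDH15 moved furthest in opposite directions. All 17 clustered genes in the table had a log2 fold change below 0, with a median of -1.50 beside 0.00 over all genes, and 6 of them were Down. The recovered SE of these 17 had a median of 1.25, beside 0.162 over all genes, so most single values are imprecise. A gene too weak in both lines does not enter the table, and one kept because it was high in 1 line had to differ, so the count and the median describe the listed genes only. The other 12 protocadherins, among them 7 of the 8 PCDHB genes, had no value in this comparison.

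PCDH1 was 43.3-fold lower in GemMIA-R3 cells, with a log2 fold change of -5.44 (SE 0.265, FDR = 4.08e-91). Only 1.02% of all genes in the table had a lower value. PCDH15 was Up at 4.21 (SE 0.224, FDR = 2.12e-76), 18.5-fold higher in GemMIA-R3 cells, although the other genes of its chromosome 10 had a median of -0.45. PCDH9, a delta protocadherin of the nervous system, had a value of 0.75 (SE 0.761, FDR = 0.484) and was not called. Its 95% interval ran from -0.75 to 2.24.

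Both PCDHA genes in this table were Down, beside 15.2% of all genes. PCDHAC2, a C-type isoform that neurons express without the random choice, stood at -5.09 (SE 1.73, FDR = 0.0102). PCDHA4, one of the variable isoforms, stood at -3.34 (SE 1.23, FDR = 0.0192). PCDHB14 was the single PCDHB gene measured and was Down at -3.50 (SE 1.46, FDR = 0.0424).

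Of the 14 PCDHG genes, 3 were Down, beside 15.2% of all genes. PCDHGC3, a C-type isoform found in many tissues, had the smallest SE of the clustered genes and was Down at -0.79 (SE 0.147, FDR = 5.44e-07), 1.73-fold lower in GemMIA-R3 cells. PCDHGB7 was Down at -2.02 (SE 0.808, FDR = 0.0329). PCDHGA6 was Down at -2.29 (SE 1.09, FDR = 0.0833). The other 11 were not called and ran from -4.17 for PCDHGB6 (SE 2.11, FDR = 0.106), just outside the FDR limit, to -0.16 for PCDHGC4 (SE 1.52). Their intervals overlap those of the called genes, so the 14 cannot be put in an order beyond their errors. Between these ends stood PCDHGA7 at -3.04 (SE 2.01), PCDHGB3 at -1.82 (SE 1.33), PCDHGC5 at -1.50 (SE 1.49), PCDHGA10 at -1.30 (SE 1.25) and PCDHGA1 at -1.25 (FDR = 0.531). PCDHGB1, PCDHGA4, PCDHGB2 and PCDHGA5 lay nearer 0, from -0.91 (SE 0.592) to -0.39 (SE 1.04).

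Genes next to the clusters were lower in GemMIA-R3 cells too. Of 24 measured neighbours in the list of 5q31 genes, 12 were Down and 0 were Up, with a median of -0.64. Of all genes, 15.2% were Down and 11.7% Up. Among the called neighbours, the largest changes were -3.50 for FCHSD1 (SE 0.560), an actin and membrane regulator, -2.72 for ARAP3 (SE 0.428), a GTPase activating protein, -1.13 for GNPDA1 (SE 0.0980), an enzyme of amino sugar metabolism, and -0.99 for ANKHD1 (SE 0.236). TAF7, a general transcription factor gene that lies between the PCDHB and PCDHG clusters, was Down at -0.76 (SE 0.0867, FDR = 4.10e-17), close to PCDHGC3. Within 1 Mb of the clusters, all 35 genes other than protocadherins had values below 0.

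The shift was not limited to 5q31. Over the 598 other genes of chromosome 5 the median was -0.45, with 500 below 0, 35.3% Down and 5.85% Up. Chromosomes 5 and 10 shared this median, the lowest of 23 chromosomes, while chromosome 13, which holds PCDH9 and PCDH20, had the highest at 0.40. All 19 bins of 10 Mb along chromosome 5 had a median below 0, and in the 13 bins of at least 20 genes it ran from -0.72, in the bin with the clusters, to -0.03. With the chromosome 5 median subtracted, 15 of 17 clustered genes stayed below 0, their median was -1.05, and 5 were past the limits of a Down call. PCDH1 stood at -4.99 on this scale and PCDHGC3 at -0.34, inside the limit. The FDR was kept as deposited for these counts, and the part of the chromosome-wide shift in the protocadherin values was not tested.

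**Figure D2:**
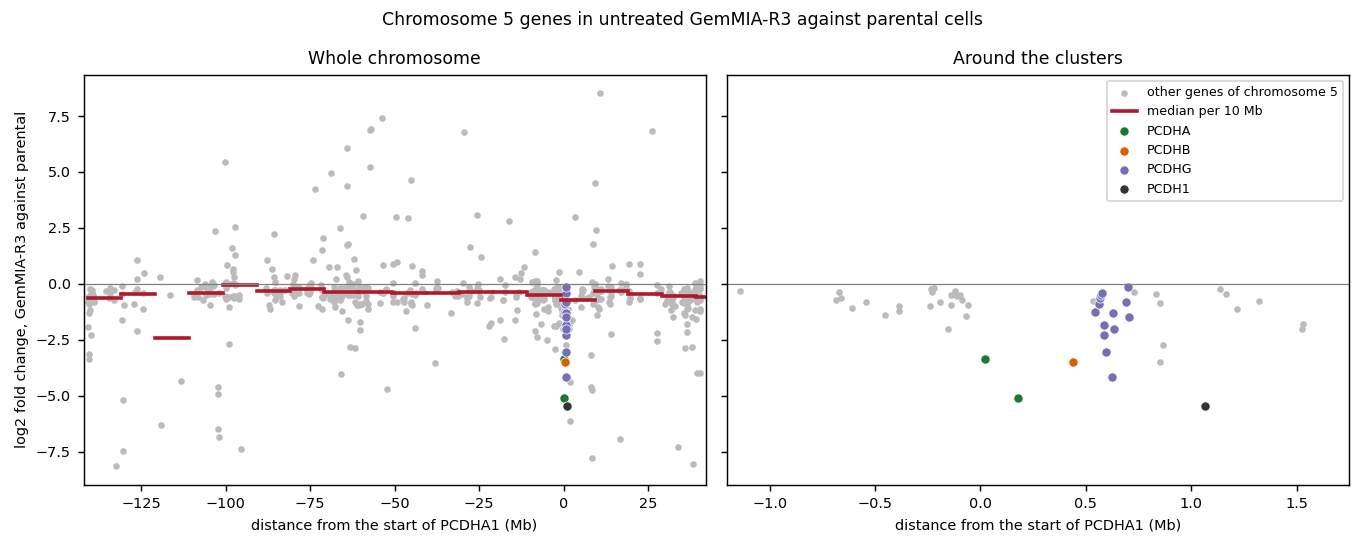
Log2 fold change in untreated GemMIA-R3 against parental cells for each chromosome 5 gene, by distance in Mb from the start of PCDHA1, over the whole chromosome on the left and around the clusters on the right. Grey points are other genes, red lines their medians per 10 Mb and coloured points protocadherins, all 17 clustered genes and PCDH1 lying below 0, with PCDH1 lowest among them at -5.44.

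In parental cells given CM03 for 6 h, PCDH1 fell and PCDHB13 rose furthest among the called protocadherins. Of 21 protocadherins in this table, 5 were Down and 4 were Up, while 16.3% of all 13503 genes were Down and 16.4% were Up. PCDH1 was Down at -1.35 (SE 0.0617, FDR = 1.28e-103), 2.55-fold lower with CM03. PCDH18, which binds the adaptor DAB1 in the mouse, was Down at -0.88 (SE 0.386, FDR = 0.0348). PCDH9 was Up at 0.86 (SE 0.286, FDR = 0.00496). PCDH7, which binds protein phosphatase 1, had a value of 0.64 (SE 0.499, FDR = 0.252), and PCDH15 one of 0.16 (SE 0.187). PCDH20 was listed at exactly 0 with an FDR of 1.00, as was PCDHB6, and 178 genes of the table were listed so.

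Among the 4 PCDHG genes at 6 h, PCDHGB7 was Down at -0.84 (SE 0.280, FDR = 0.00497) and PCDHGB1 at -0.76 (SE 0.242, FDR = 0.00305). PCDHGB2 had a value of -0.38 (SE 0.305) and PCDHGC3 one of 0.18 (SE 0.0883, FDR = 0.0560), which lies within the limit on the fold change. None of the 3 PCDHA genes was called, and 0 of 3 would pass at an FDR under 0.1 alone. PCDHA11 had a value of -1.26 (SE 0.988), PCDHAC2 one of -0.89 (SE 0.632) and PCDHA12 one of 1.69 (SE 1.10).

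Of the 8 PCDHB genes, 3 were Up and 1 was Down at 6 h, beside 16.4% and 16.3% of all genes. PCDHB13 was Up at 3.46 (SE 1.07, FDR = 0.00226), and only 0.629% of genes had a higher value. PCDHB8 was Up at 2.12 (SE 1.13, FDR = 0.0871) and PCDHB16 at 1.54 (SE 0.841, FDR = 0.0951), both near the FDR limit. The PCDHB8 value was shared within 0.0001 by 12 genes of the table. PCDHB14 was Down at -0.72 (SE 0.268, FDR = 0.0123). PCDHB2 at 1.09 (SE 0.784) and PCDHB7 at 1.08 (SE 0.996) were not called. PCDHB9, whose upstream stretch holds the same GGTGGCGCT as PCDHB13, had a value of -0.08 (SE 0.376). The genes of this cluster that share the motif therefore stood on both sides of 0.

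**Figure D3:**
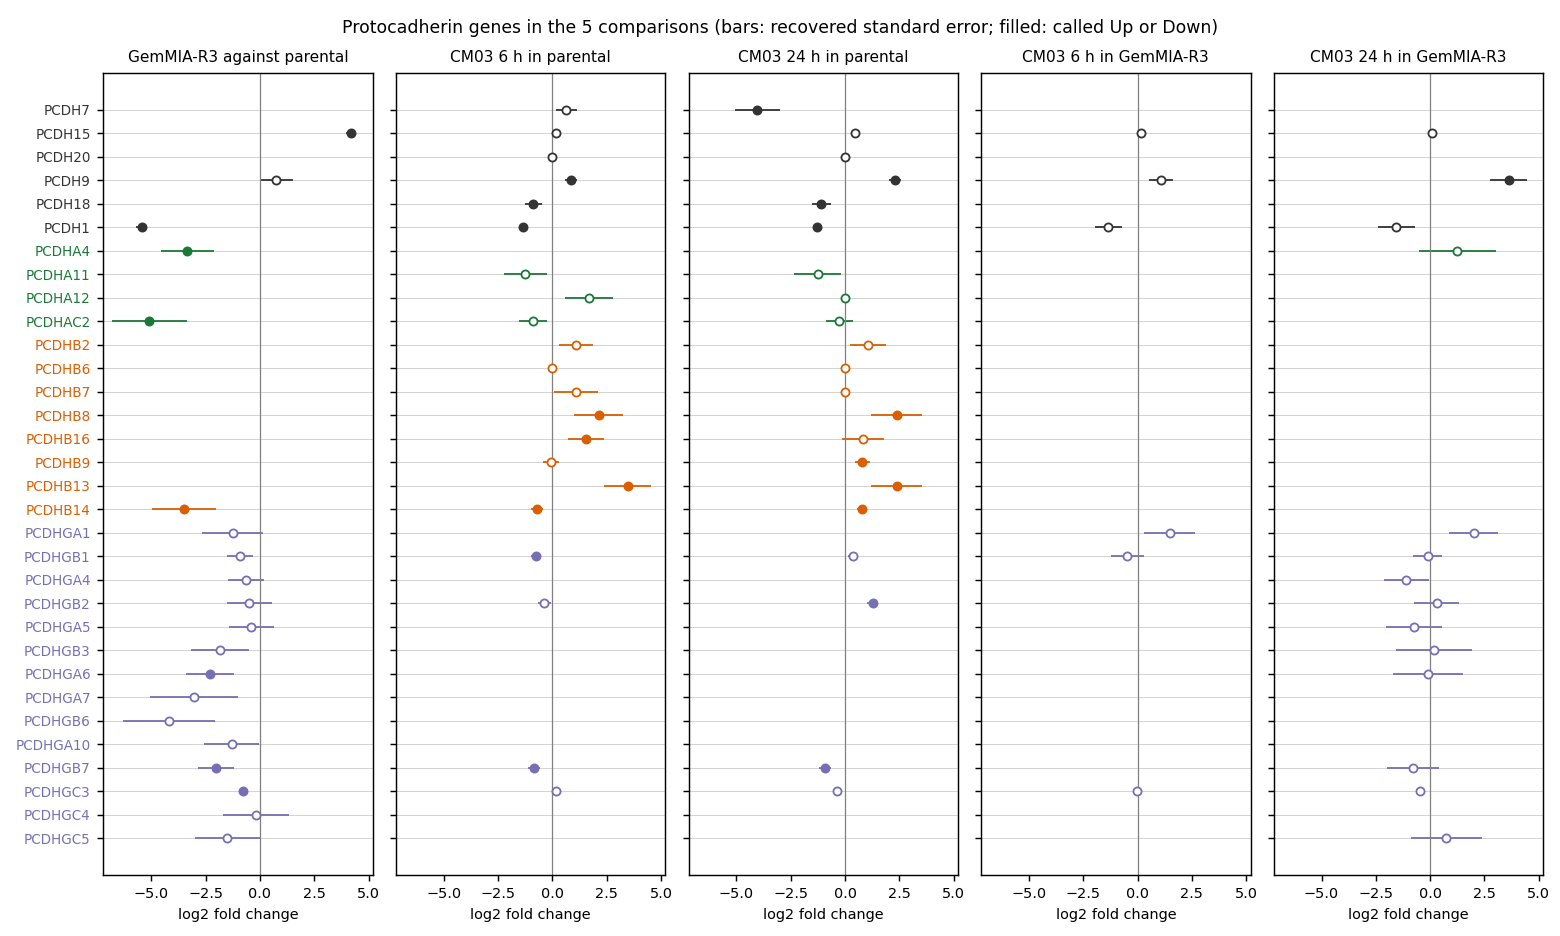
Log2 fold change of each protocadherin in each of the 5 comparisons, with the recovered SE as bars, coloured by family and filled where the gene was called. The 17 clustered genes of the first panel all lie below 0, the PCDHB genes appear mostly in the parental CM03 panels, and PCDH9 is right of 0 in every panel.

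After 24 h of CM03 in parental cells, 4 of the 21 protocadherins were Down and 6 were Up, beside 16.8% and 18.5% of all genes. PCDH7 was Down at -4.03 (SE 1.04, FDR = 0.000222), 16.3-fold lower with CM03, and only 0.0296% of genes had a lower value. At 6 h the same gene had not been called, and the 2 tables may share control libraries, so the change between the times was not tested. PCDH1 was Down at -1.27 (SE 0.0618, FDR = 4.31e-92), close to its value at 6 h. PCDH18 was Down at -1.09 (SE 0.425, FDR = 0.0171). PCDH9 was Up at 2.30 (SE 0.255, FDR = 1.33e-18), 4.94-fold higher with CM03. PCDH15 had a value of 0.46 (SE 0.187, FDR = 0.0229), under the limit on the fold change. Of the 3 genes with a quadruplex motif in the promoter window, PCDH1, PCDH7 and PCDH18, each was Down at 24 h. The remaining Down gene, PCDHGB7, has no such motif, and PCDH7 was not called at 6 h. This description of 3 genes carries no test.

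PCDHGB2 was Up at 24 h at 1.28 (SE 0.248, FDR = 7.30e-07), 2.43-fold higher with CM03. PCDHGB7 was Down at -0.93 (SE 0.289, FDR = 0.00245). PCDHGB1, Down at 6 h, had a value of 0.35 (SE 0.223, FDR = 0.154). PCDHGC3 had a value of -0.35 (SE 0.0897, FDR = 0.000213), past the FDR limit and under that on the fold change. Genes of the same cluster, which share 2177 exon bases, thus stood on opposite sides of 0 beyond their errors, as PCDHGB2 and PCDHGB7 show.

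Of the 8 PCDHB genes at 24 h, 4 were Up, 0 were Down and 2 were listed at exactly 0. Of all genes, 18.5% were Up and 16.8% Down. PCDHB14 was Up at 0.79 (SE 0.231, FDR = 0.00130), having been Down at 6 h, and was the single member called in both directions among the CM03 comparisons. PCDHB9 was Up at 0.80 (SE 0.345, FDR = 0.0319). PCDHB2 at 1.07 (SE 0.825) and PCDHB16 at 0.81 (SE 0.968) were above 0 and not called. PCDHB13 and PCDHB8 had the same value of 2.38 (SE 1.17, FDR = 0.0596), shared within 0.0001 by 14 genes of the table. PCDHA12 and PCDHB7, at 1.69 (SE 1.10) and 1.08 (SE 0.996) at 6 h, were both listed at exactly 0 at 24 h, as 204 genes were. PCDHA11 had the identical value of -1.26 at both times, 1 of 11 genes with such a repeat. Large SEs and values repeated across genes were found among the PCDHA and PCDHB genes, and PCDH7 had a SE of 1.04 at 24 h. The part of large SEs and repeated values in the calls was not tested. With the count limited to members with a SE under 0.5, a limit chosen after the data were seen, 5 Down and 1 Up remained at 6 h and 3 Down and 4 Up at 24 h. Neither PCDHB13 nor PCDH7 was among them.

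The CM03 comparisons of GemMIA-R3 cells listed 6 protocadherins at 6 h and 14 at 24 h, beside 21 in parental cells at each time. PCDHG genes went the other way at 24 h, with 10 listed beside 4 in parental cells. Whether such gaps come from the line or from the study cannot be told apart. At 6 h of CM03, 0 of 6 were called, while 7.26% of the 12939 genes were Down and 5.0% were Up. Of the 6, 2 had an unadjusted p under 0.05 as recovered from the FDR. PCDH1 had a value of -1.34 (SE 0.622, FDR = 0.106), just outside the FDR limit, and PCDH9 one of 1.09 (SE 0.552, FDR = 0.142). The others were PCDHGA1 at 1.48 (SE 1.18), PCDH15 at 0.17 (SE 0.147), PCDHGC3 at -0.01 (SE 0.150) and PCDHGB1 at -0.48 (SE 0.757). No PCDHA or PCDHB gene was listed.

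At 24 h of CM03 in GemMIA-R3 cells, 1 of 14 protocadherins was Up and 0 were Down, beside 20.3% and 18.9% of the 14237 genes. PCDH9 was Up at 3.61 (SE 0.845, FDR = 8.03e-05), 12.2-fold higher with CM03. PCDH1 had a value of -1.56 (SE 0.844, FDR = 0.112) and PCDH15 one of 0.08 (SE 0.180, FDR = 0.749). None of the 11 clustered genes was called, and 1 of them, PCDHGC3, had an unadjusted p under 0.05. It stood at -0.48 (SE 0.147, FDR = 0.00296), just inside the limit on the fold change. The 11 ran from -1.09 for PCDHGA4 (SE 1.05) to 2.01 for PCDHGA1 (SE 1.12, FDR = 0.123), with the single PCDHA gene, PCDHA4, at 1.25 (SE 1.77), and their median SE was 1.19 beside 0.177 over all genes. The GemMIA-R3 control libraries of this comparison also served in that of the untreated lines.

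PCDH9 was thus Up in parental cells at both times and in GemMIA-R3 cells at 24 h, and PCDH1 was Down in parental cells at both times, with values in GemMIA-R3 cells that missed the FDR limit. Whether the lines differed was tested by the difference of the log2 fold changes over its SE, by a normal test of both sides, adjusted (Benjamini-Hochberg) over 10459 genes at 6 h and 11004 at 24 h. Of all genes, 19.5% differed at 6 h and 18.0% at 24 h at an adjusted p under 0.05. No protocadherin did, of 5 tested at 6 h and 7 at 24 h, and 0 of these 12 had an unadjusted p under 0.05. The smallest p belonged to PCDH9 at 24 h, whose response was 1.31 higher in GemMIA-R3 cells (95% interval -0.42 to 3.04). For PCDH1 the difference was 0.01 at 6 h (-1.21 to 1.24) and -0.29 at 24 h (-1.94 to 1.37). PCDHGB2 differed by -0.97 at 24 h (-3.06 to 1.13). These intervals still allow differences of 1 or more on the log2 scale in either direction for PCDH1 and PCDHGB2. The interval of PCDHGC3 was narrow, from -0.54 to 0.15 at 6 h and from -0.47 to 0.21 at 24 h.

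**Figure D4:**
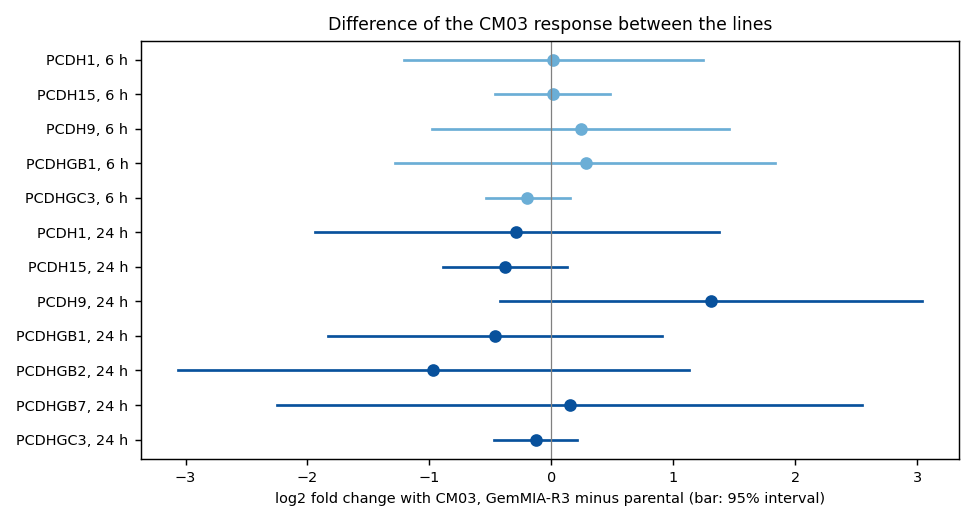
Difference of the CM03 response (log2 fold change in GemMIA-R3 minus that in parental cells) for each protocadherin tested, with its 95% interval, at 6 h (light) and 24 h (dark). All 12 intervals include 0, and that of PCDH9 at 24 h runs from -0.42 to 3.04.

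The parental tables also hold, for each gene, how many putative quadruplex motifs (PQs) it has, and the families differed in it. The 8 PCDHB genes had 0 to 2, the 3 PCDHA genes 2 to 7 and the 4 PCDHG genes 18 or 19, beside a median of 5 over all 13503 genes. PCDH15 had 49, PCDH9 28, PCDH7 22, PCDH1 16, PCDH20 2 and PCDH18 0. A count of the canonical motif on hg38 over each gene and 2000 bases upstream gave the same number for 15 of 16 members on chromosome 5. The exception was PCDH1, with 22 on hg38. Of 21 motifs over the whole PCDHG cluster, 18 lay in its last 24.3 kb, a stretch covered by the counted region of every PCDHG gene, so PCDHGB1, PCDHGB2 and PCDHGB7, each with 19, share 18 of them. Those genes with equal counts had values of 0.35, 1.28 and -0.93 after 24 h of CM03 in parental cells. PCDH9, with 28 motifs and none in its promoter window, was Up. The deposited number of 0 for PCDH18 differs from the 2 motifs found here in its RefSeq promoter window, and the cause of the difference was not tested.

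**Figure D5:**
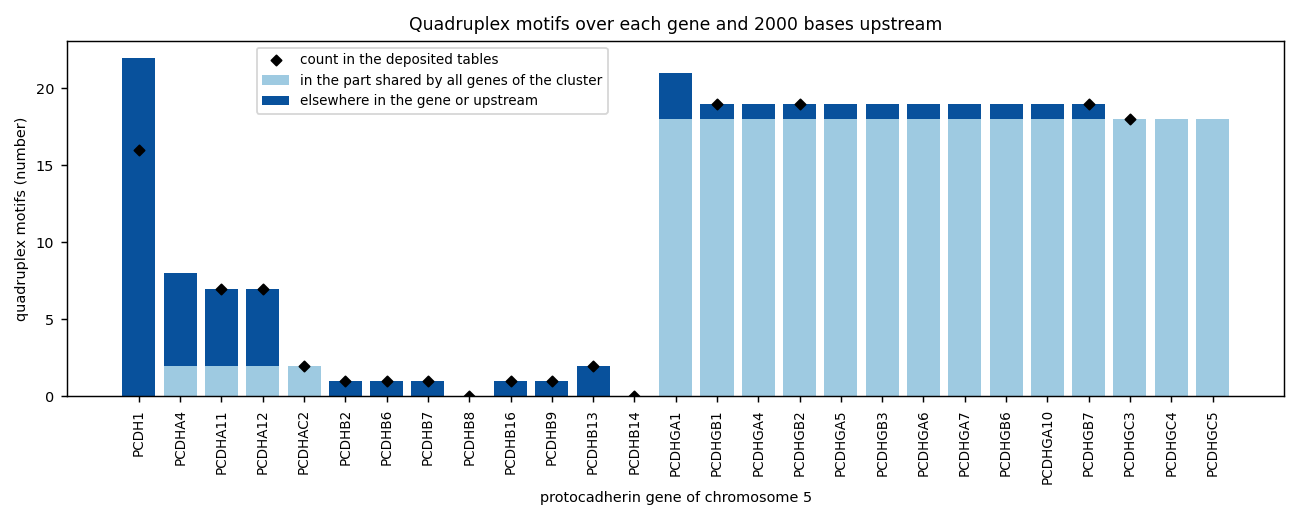
Number of canonical quadruplex motifs on hg38 over each protocadherin gene of chromosome 5 and 2000 bases upstream, split into those in the part common to the cluster (light) and those elsewhere (dark), with the count of the deposited tables as diamonds. The PCDHG genes carry the same 18 shared motifs, and the PCDHB genes 0 to 2.

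Regulators of the clusters were among the genes called with CM03. Of 23 measured genes in a list of 24 (CTCF, cohesin and other chromatin regulators), 9 were Down and 0 Up in parental cells at 6 h, and 5 Down and 1 Up at 24 h. Of all genes, 16.3% were Down and 16.4% Up at 6 h, and 16.8% Down and 18.5% Up at 24 h. CTCF itself was Down at -1.26 at 6 h (SE 0.0487, FDR = 9.37e-144), as were EHMT1, a histone H3 lysine 9 methyltransferase, at -1.06 (SE 0.0533), and DNMT3A, a DNA methyltransferase, at -0.83 (SE 0.0864). At 24 h the largest changes were those of DNMT3B, another DNA methyltransferase, at -0.98 (SE 0.102), the cohesin subunit SMC1A at -0.69 (SE 0.0778), EHMT2 at -0.64 (SE 0.0446) and the cohesin regulator PDS5A at -0.62 (SE 0.0552). In GemMIA-R3 cells 3 were Down and 0 Up at 6 h, with CTCF at -0.52 (SE 0.103, FDR = 1.25e-05), beside 7.26% and 5.0% of all genes. At 24 h 6 were Down and 2 Up, led by DNMT3B at -1.07 (SE 0.195) and EHMT1 at -1.03 (SE 0.129), beside 18.9% and 20.3% of all genes. Between the untreated lines 2 were Down and 2 Up, beside 15.2% and 11.7% of all genes. The Up genes were RAD21 of cohesin at 0.70 (SE 0.0923) and SMCHD1, which silences clustered protocadherins in the mouse, at 0.69 (SE 0.0792). The Down genes were SMC3, also of cohesin, at -0.61 (SE 0.0960) and LRIF1 at -0.50 (SE 0.104). Whether these changes bear on the protocadherin genes was not tested.

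Among genes that act with or after protocadherins (receptor partners, the WAVE complex, focal adhesion kinases and the secretase that cleaves them), 22 of 24 were measured between the untreated lines, with 2 Down and 4 Up. Of all genes, 15.2% were Down and 11.7% Up in that comparison. The RET receptor tyrosine kinase, a partner of clustered protocadherins, was Down at -4.99 (SE 0.934), and MARCKS, which acts after gamma protocadherins in the mouse, was Up at 8.01 (SE 0.380). With CM03, 2 were Down and 2 Up in parental cells at 6 h, 0 Down and 3 Up at 24 h, 1 Down and 1 Up in GemMIA-R3 cells at 6 h, and 2 Down and 4 Up at 24 h. In each of these 4 tables the share of the list called was below that of all genes, Down and Up. PTK2B, a focal adhesion kinase that clustered protocadherins inhibit, was Up at 24 h in both lines, at 0.86 (SE 0.143) in parental and 1.80 (SE 0.353) in GemMIA-R3 cells. PSEN2, of the gamma-secretase, was Down at -0.94 (SE 0.0987) in parental cells at 6 h, and in GemMIA-R3 cells at -0.84 (SE 0.149) after 6 h and -0.80 (SE 0.189) after 24 h.

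The other cadherins were also counted. Between the untreated lines, 4 of 18 were Down and 2 were Up, beside 15.2% and 11.7% of all genes, with CDH12 at -6.32 (SE 1.46) and FAT4 at 4.61 (SE 0.310). In parental cells with CM03, 5 of 21 were Down and 2 Up at 6 h, and 5 Down and 5 Up at 24 h, beside 16.3% and 16.4% of all genes at 6 h and 16.8% and 18.5% at 24 h. CDH23, the tip link partner of PCDH15, was Up at 1.65 (SE 0.297) and 1.41 (SE 0.314) at these times, while PCDH15 was called at neither. In GemMIA-R3 cells 1 of 15 was Down and 0 Up at 6 h, and 7 Down and 0 Up at 24 h, beside 7.26% and 5.0% of all genes at 6 h and 18.9% and 20.3% at 24 h. At 24 h CDHR3 stood at -2.48 (SE 1.14) and DSG2 at -1.28 (SE 0.257). Of 24 measured neighbours on 5q31, 3 were Down and 4 Up with CM03 in parental cells at 6 h, and 2 Down and 3 Up at 24 h. In GemMIA-R3 cells 1 of 22 was Down and 1 Up at 6 h, and 4 of 24 were Down and 4 Up at 24 h. These shares were near or below those of all genes given above, and no direction is read from them. RELL2, a neighbour of the PCDHG cluster, was Up with CM03 in all 4 comparisons, from 0.73 (SE 0.289) in GemMIA-R3 cells at 6 h to 2.52 (SE 0.338) in the same cells at 24 h.

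Markers of cell types were also called between the untreated lines, beside 15.2% of all genes Down and 11.7% Up. Of 4 epithelial markers, 2 were Down (KRT8 at -2.64 and KRT18 at -2.42) and 1 was Up. Of 6 neuronal markers, 3 were Down and 1 Up, led by MAP2 at -2.60 and TUBB3 at -2.52, and of 4 fibroblast markers 3 were Up, led by PDGFRB at 4.51 and COL3A1 at 4.44. Of 4 mesenchymal markers, 2 were Up and 0 Down, with SNAI2 at 5.14. With CM03 in parental cells, 3 of 6 neuronal markers were Down and 1 Up at 24 h, 2 of 4 fibroblast markers were Down and 2 Up, 2 of 5 mesenchymal markers were Down and 1 Up, with VIM at -0.70, and 2 of 6 epithelial markers were Down and 1 Up, with KRT18 at -1.54 and CDH1 at 3.21. Of all genes, 16.8% were Down and 18.5% Up at 24 h. At 6 h 1 epithelial and 1 neuronal marker were Up and 1 mesenchymal marker was Down, beside 16.4% of all genes Up and 16.3% Down. In GemMIA-R3 cells no marker of these 4 lists was called at 6 h, while 7.26% of all genes were Down and 5.0% Up. At 24 h 3 of 4 epithelial markers were Down, with KRT18 at -2.23, as were 2 of 4 fibroblast markers, VIM at -1.08 among the mesenchymal markers, and 1 of 6 neuronal markers, while 1 mesenchymal and 1 neuronal marker were Up. Of all genes, 18.9% were Down and 20.3% Up in GemMIA-R3 cells at 24 h. In lists this short, a share near that of all genes says nothing about the markers. The part of the marker changes in the protocadherin values was not tested, and fewer cells that express a gene cannot be told apart from less RNA per cell.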

How the data were processed

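RNA-seq reads of both lines were trimmed by the authors with Trimmomatic 0.36 and aligned to hg38 with STAR 2.5b. Duplicate reads were marked by unique molecule identifiers. Reads were then counted with FeatureCounts and compared between groups with SARTools. How the earlier study made the values of CM03-treated parental cells is not given in the sources used here. Deposited log2 fold changes come from these comparisons, and the normalization behind them is not described in detail. Deposited FDR values are p-values that the authors adjusted within each table. Columns that mark the authors' own subsets were not used. The deposited number of PQs per gene is a count of canonical motifs by the authors. These are results of the authors' own comparisons: no counts or values per library were used, no test per gene was refitted, and the depth of each library, and with it the counting precision, is unknown.

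Protocadherins are gene IDs that begin with PCDH. All were accounted for, and named with values were those outside the clusters, the called clustered genes with the 8 lowest and 8 highest log2 fold changes per comparison, those called in both directions, and up to 4 called genes of each list by size of change. The result of 1 listed gene is not reported here. Members and lists were chosen with earlier results of these data known. Standard errors were the size of the log2 fold change over the normal quantile of the p recovered from the FDR. Changes under 0.01 in size were not tested. The test of the difference between the lines was tested on simulated data, with differences put only into genes with small SEs in both lines. That check does not cover the larger SEs of most protocadherins tested. Limits on calls, centring and the genes counted were varied as alternatives. Gene positions and promoters are from RefSeq GRCh38.p14 and exons from GENCODE release 44, and 13736 of 14047 genes of the table of untreated cells were matched to a position by symbol or unique synonym. Scripts ran in Python 3.11.15 (pandas 2.3.3, numpy 2.4.6, scipy 1.17.1), with figures from matplotlib 3.10.9.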

Additional observations from a re-analysis of the deposited data

How the results depend on the processing

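Counts of called protocadherins stayed within 1.5 times of those given at an FDR under 0.05 in all 5 comparisons. At the strong limits (a log2 fold change of 1 or more in size, FDR under 0.05) the count fell to 2 of 9 in parental cells at 6 h and to 5 of 10 at 24 h. Restricted to genes of all 5 tables, it fell to 3 of 8 between the untreated lines, and to 3 and 2 in parental cells at 6 h and 24 h. With members of a SE under 0.5, chosen after seeing the data, it was 3 between the untreated lines and 0 in GemMIA-R3 cells at 24 h, where PCDH9 has a larger SE. In GemMIA-R3 cells at 24 h it went from 1 to 2, by PCDHGC3, both with an FDR under 0.1 alone and when centred on the median of all genes. The median of the clustered genes between the untreated lines was -2.82 over those with an FDR under 0.1 and -0.85 over those listed in all 5 tables, beside -1.50. With chromosome 5 genes as the base line, also chosen after seeing the data, 7 of 8 calls were counted.

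No paired analysis was possible because the tables carry no value per library. Leaving out a replicate, another normalization and a filter on low counts were not run, and the depth is unknown.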
